A study of Caenorhabditis elegans with 45 samples.

Results

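The pals genes are a family of the nematode Caenorhabditis elegans whose protein products share a domain of unknown biochemical activity. Every protein coding gene of the deposited gene table whose name begins with pals- was taken, which gave 38 genes of 46926 in the table and of 19985 annotated as protein coding. No measured value entered that choice. Of the 38 members, 23 had enough counts to be tested and 15 did not.

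The study sequenced polyadenylated RNA of whole young adult hermaphrodites in 45 libraries, with 5 biological replicates, lettered A to E, for each of 9 genotypes. The mutations hit a pair of pathways. SMG-1 and SMG-2 act in nonsense-mediated decay (NMD), which destroys mRNAs that stop translation too early. The hypoxia-inducible transcription factor HIF-1 is hydroxylated by EGL-9 in an oxygen-dependent reaction and then destroyed, so that it accumulates in egl-9 mutants. The strains carried mutations of smg-2 (allele r863) or smg-1 (allele n6597), each by itself, with egl-9 (allele sa307), or with both egl-9 and hif-1 (allele ia4). The remaining genotypes were egl-9 hif-1 and egl-9 with the same alleles, and the wild type N2. They are written below without allele names, and the strains that lack a smg gene, egl-9 and hif-1 are called triple mutants. Each genotype was 1 strain, so an effect of the strain and one of its alleles cannot be told apart. All animals were fed OP50 bacteria at 20 °C in air with 20% oxygen, and 300 to 500 animals per sample were picked as L4 larvae and collected 6 h later.

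The pals family is best known from the intracellular pathogen response, a transcriptional program that worms switch on when microsporidia or the Orsay virus grow inside their intestinal cells. In that program pals-22 acts as a brake and its neighbour pals-25 as an activator, and a second brake, pals-17, is opposed by pals-16 and pals-20. Many other members, pals-5 among them, are outputs that are switched on, together with genes of a cullin ubiquitin ligase such as cul-6 and its skr partners.

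Total counts ran from 9822412 to 33169699 per library, with a median of 16917459. The mutated genes were first read in their own libraries. RNA of egl-9 lay at 95.1 to 129 CPM (counts scaled to the library total after TMM normalization) in the 3 genotypes that carry sa307 with an intact hif-1, and at 12.2 to 28.3 CPM in the other 6. In egl-9 hif-1 libraries hif-1 lay at 15.8 to 36 CPM, against 142 to 162 CPM in egl-9, whereas the triple mutants had 248 to 392 CPM. Neither smg gene had less RNA in its own mutant: smg-1 averaged 385 CPM in smg-1 and 115 CPM in N2, and smg-2 averaged 87.1 CPM in smg-2 and 86.5 CPM in N2. Of 8 listed HIF-1 targets, egl-9 had 8 higher than N2, and egl-9 hif-1 had 8 lower than egl-9, beside 11.9% and 20.0% of all genes. None of the marker genes listed for 7 tissues was at 0 in any genotype. The smg-1 libraries C and D stood apart from the other 3 smg-1 libraries for much of the family, so results that rest on them are given with and without them.

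Library C of the smg-1 triple mutant also stood apart and went partly against its label. Its HIF-1 targets summed to 234 CPM, against 78.2 to 85.7 CPM in the other 4 libraries of that strain, and no N2 library passed 105 CPM. The smg-1 egl-9 libraries, with hif-1 intact, had 2479 CPM or more. Compared with another library of its strain, its chi-square per degree of freedom over genes was 66.4 to 70.0, against 4.89 to 17.4 between the other 4. In the smg-1 triple mutant against egl-9 hif-1, 4 of the 8 targets were called higher, by up to log2 5.94, and without library C 3 were higher, by up to log2 2.16, and 1 lower. pals-23 had 56.8 CPM in it, the middle value of the 5 libraries. Results that use this strain are given without it where a call changed.

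The members lie in 11 places on the WBcel235 genome. The largest run, chrI:13083321-13144623, holds 14 members in 61.3 kb, of which 5 could be tested. A run of 7 at chrIII:1376945-1406263 holds pals-16, pals-17, pals-18, pals-19 and pals-20. Another, chrIII:120435-137975, holds 4 members in the order pals-24, pals-23, pals-22 and pals-25, on 1 strand and within 17.5 kb. Smaller runs of 3 lie at chrIII:4375154-4387757 (pals-26, pals-27 and pals-28) and at chrV:12437440-12446995 (pals-37, pals-39 and pals-38), a pair (pals-29 and pals-30) lies on chromosome IV, and pals-1, pals-31, pals-32, pals-33 and pals-34 stand alone. By annotation 11 members overlap another gene. Whether the counting used strand, and how it shared reads between similar members, is not given in the sources used here, so values of close paralogues and of overlapping pairs are uncertain to that extent. The partners of pals-24 (C29F9.12) and pals-32 (str-46), both on the opposite strand, never passed 0.183 CPM and 0.441 CPM in any library.

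**Figure D1:**
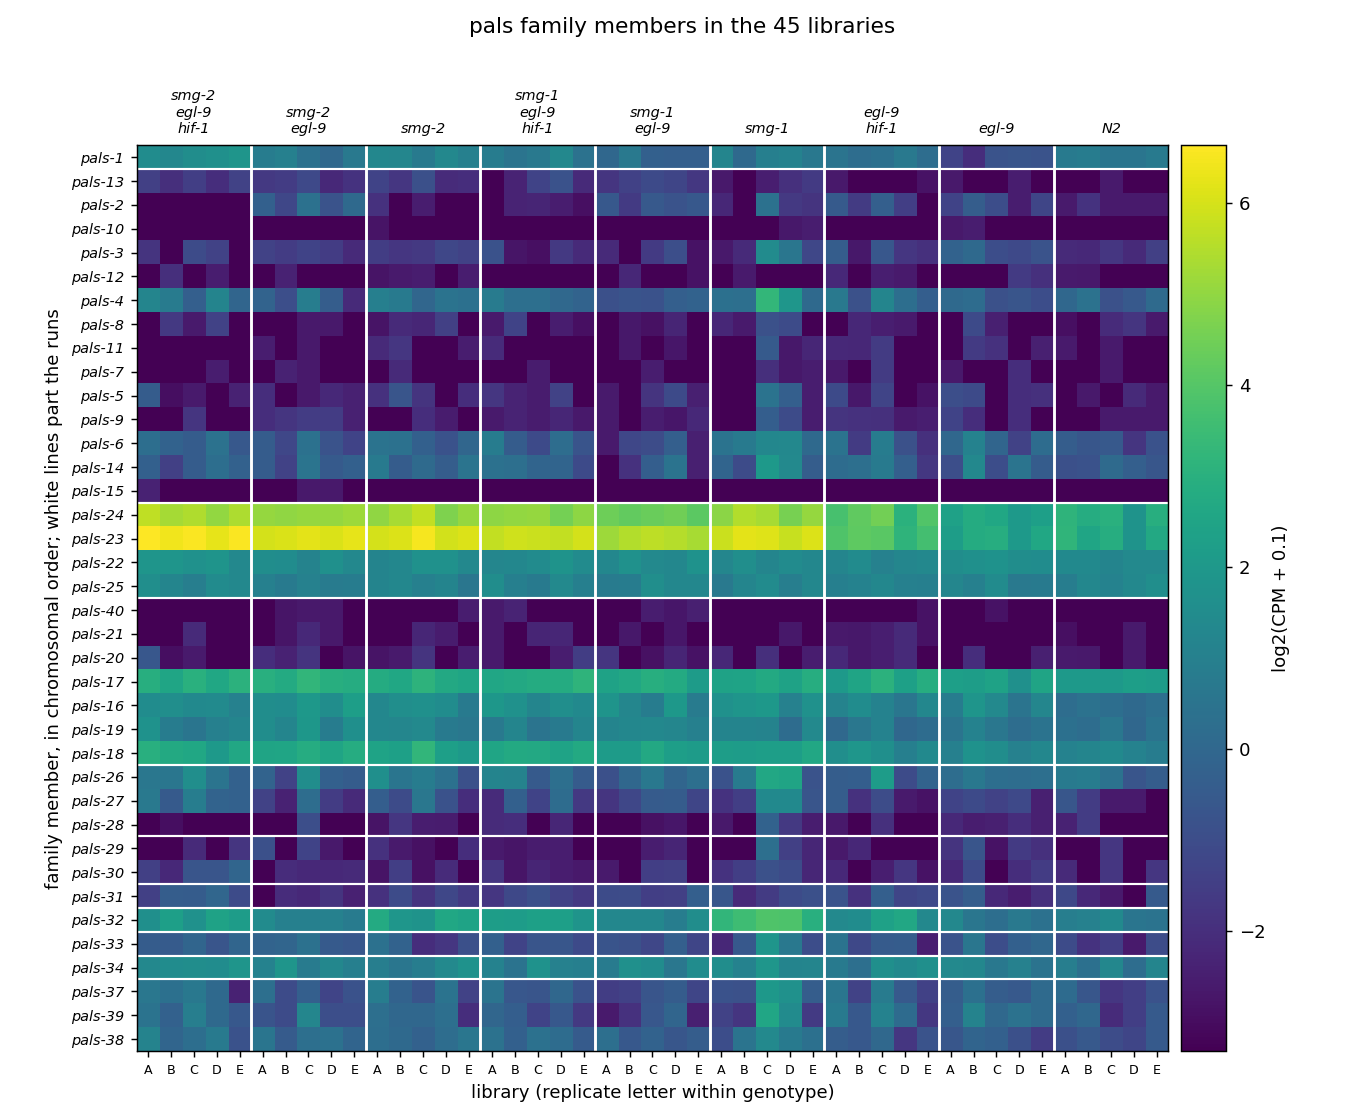
Level of each of the 38 members (rows) in each of the 45 libraries (columns, grouped by genotype), as log2 of CPM plus 0.1. The rows of pals-23 and pals-24 are bright in every library of the 6 NMD mutant genotypes, and columns C and D of smg-1 are brighter than their neighbours over much of the map.

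Levels are compared between genes in TPM, a unit that corrects for transcript length. In N2 the most abundant member was pals-24 with 6.81 ± 2.32 TPM (SD, n = 5), followed by pals-23 with 5.17 ± 2.00 TPM and pals-17 with 4.98 ± 0.191 TPM. Those 3 lay within their spread of one another. The pair of regulators pals-22 and pals-25 stood at 2.78 ± 0.275 and 2.06 ± 0.390 TPM, with pals-34 between them at 2.47 ± 0.864 TPM. In smg-1 the order changed: pals-23 had 55.5 ± 6.63 TPM, pals-24 had 34.7 ± 7.20 TPM and pals-32 had 8.77 ± 2.26 TPM. In smg-2 pals-23 and pals-24 again led, at 58.2 ± 7.70 and 35.6 ± 9.21 TPM, and pals-17 followed at 7.95 ± 1.09 TPM. The 2 leading members made up most of the family's RNA there. They held a mean of 64.3% of the summed CPM of all 38 members in smg-1, 71.9% in smg-2 and 34.4% in N2. The summed level itself averaged 157 ± 29.7 CPM in smg-1, 149 ± 23.2 CPM in smg-2 and 37.7 ± 5.96 CPM in N2.

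Loss of NMD raised pals-23 and pals-24, neighbours at the left end of the run of 4, in both smg mutants and in all 3 backgrounds, while their partners to the right, the brake pals-22 and the activator pals-25, stayed between 1.39 and 3.56 CPM in every library. pals-23 lies at chrIII:124778-127971 with 1488 bp of exon sequence in 4 annotated transcripts, and pals-24 at chrIII:120435-124690 with 1012 bp in 1 transcript. pals-23 had 56.6, 75.4, 71.7, 55.1 and 69.6 CPM in the smg-1 libraries A to E, against 8.98, 5.75, 7.31, 3.40 and 6.40 CPM in N2. In smg-2 it had 64.2, 69.6, 90.3, 62.0 and 69.1 CPM. The lowest NMD mutant library thus lay far above the highest N2 library. The change was 10.2-fold in smg-1 (log2 3.35, SE 0.18, adjusted p = 1.18e-19 in edgeR) and 11-fold in smg-2 (log2 3.46, SE 0.18, adjusted p = 3.55e-20 in edgeR). Both comparisons use the same N2 libraries. RNA came from whole animals, so fewer cells of a type and less RNA per cell cannot be told apart for any value here.

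pals-24 moved the same way by a smaller factor. It had 30.2, 44.5, 40.4, 24.2 and 33.5 CPM in smg-1 and 31.3, 39.7, 52.9, 25.9 and 32.8 CPM in smg-2, against 8.79, 7.0, 7.84, 3.34 and 7.53 CPM in N2. No NMD mutant library overlapped an N2 library. Its change was 4.97-fold in smg-1 (log2 2.31, SE 0.21, adjusted p = 3.23e-12 in edgeR) and 5.26-fold in smg-2 (log2 2.4, SE 0.21, adjusted p = 1.08e-12 in edgeR). By contrast pals-22 had 2.29, 2.94, 2.22, 2.72 and 2.36 CPM in smg-1 and 2.12, 2.32, 3.14, 3.21 and 2.41 CPM in smg-2, against 2.54, 2.55, 2.17, 2.50 and 2.47 CPM in N2. pals-25 had 1.52, 2.24, 2.68, 1.80 and 2.32 CPM in smg-1 and 2.12, 2.32, 1.91, 2.14 and 1.39 CPM in smg-2, against 1.78, 2.31, 2.04, 2.38 and 2.93 CPM in N2. The ranges of these regulators overlapped between mutants and N2. Over all 14 comparisons between genotypes pals-25 was called in 0, with log2 differences between -0.20 and 0.43, and pals-22 in 2, with differences between -0.36 and 0.49. Other settings called pals-25 higher in the smg-2 triple mutant than in smg-2 egl-9. In edgeR these were DESeq2's size factors (0.45, adjusted p = 0.0408), no filter (0.48, adjusted p = 0.0426) and only the genotypes compared (0.48, adjusted p = 0.0347). On log2 TPM values pals-22 was called higher in egl-9 than in N2 (0.31, adjusted p = 0.0330 in limma).

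The same pair rose where HIF-1 was active. In smg-1 egl-9, pals-23 had 36.5, 44.3, 49.5, 45.9 and 40.5 CPM, and in smg-2 egl-9 it had 62.7, 66.2, 74.3, 66.6 and 77.6 CPM, against 4.60, 6.94, 7.34, 4.08 and 6.01 CPM in egl-9. pals-24 averaged 20.0 CPM in smg-1 egl-9, 33.3 CPM in smg-2 egl-9 and 5.39 CPM in egl-9. The groups did not overlap. For pals-23 the change was 7.43-fold (log2 2.89, SE 0.18) and 11.9-fold (log2 3.57, SE 0.18), and for pals-24 it was 3.69-fold (log2 1.88, SE 0.21) and 6.16-fold (log2 2.62, SE 0.22), with the largest of the 4 adjusted p-values at 1.27e-09 in edgeR.

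Without both EGL-9 and HIF-1 the NMD-intact level was itself higher, and the factor by which NMD loss raised the pair was smaller. pals-23 had 53.3, 60.5, 56.8, 52.0 and 63.1 CPM in the smg-1 triple mutant and 99.2, 86.4, 94.0, 77.0 and 96.1 CPM in the smg-2 triple mutant, against 14.8, 17.8, 16.7, 8.71 and 12.6 CPM in egl-9 hif-1. pals-24 had 30.5, 32.2, 33.1, 23.6 and 30.6 CPM and 51.6, 38.6, 43.3, 32.2 and 42.5 CPM in the same triple mutants, against 13.4, 18.3, 22.7, 8.13 and 15 CPM in egl-9 hif-1. Again no triple mutant library overlapped an egl-9 hif-1 library. The log2 changes of pals-23 were 2.02 (SE 0.17, adjusted p = 1.38e-13 in edgeR) and 2.68 (SE 0.17, adjusted p = 2.78e-17 in edgeR). Those of pals-24 were 0.95 (SE 0.20, adjusted p = 1.76e-04 in edgeR) and 1.43 (SE 0.20, adjusted p = 1.07e-07 in edgeR).

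Across the 23 members tested, 16 were called higher and 0 lower in smg-1 than in N2, where called means an adjusted p under 0.05 in edgeR's quasi-likelihood test over all 16053 genes tested. Of all genes tested 28.8% were called higher and 24.3% lower in that comparison. In smg-2 against N2, 8 members were called higher and 0 lower, beside 24.3% of all genes higher and 19.6% lower. The median log2 change of the 23 members was 1.55 for smg-1 and 0.75 for smg-2, beside 0.11 and 0.07 over all genes. The smg-1 median includes libraries C and D, without which 7 members were called. No median without them is given, so the medians of smg-1 and smg-2 are not compared. The 8 members called in smg-2 were pals-16, pals-17, pals-18, pals-19, pals-23, pals-24, pals-32 and pals-38, and the libraries of all 8 were separate from those of N2. In smg-1, 7 of the 16 calls had libraries separate from N2. Set directly against each other, smg-2 and smg-1 differed for 1 member: pals-32 was lower in smg-2 and no member was higher, beside 0.922% of all genes lower and 1.86% higher.

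In the egl-9 background, 5 members were called higher and 1 lower in smg-1 egl-9 (24.1% and 10.6% of all genes), and 7 were called higher and 0 lower in smg-2 egl-9 (23.6% and 9.66% of all genes). With DESeq2's size factors in place of TMM the split of all genes moved towards lower calls, and the members' counts were 4 higher and 2 lower in smg-1 egl-9 and 6 higher and 0 lower in smg-2 egl-9. In the egl-9 hif-1 background, 3 members were called higher and 1 lower in the smg-1 triple mutant (18.6% and 18% of all genes). Without library C of the smg-1 triple mutant 4 were higher, pals-19 being added, and 1 lower (20.4% and 16% of all genes). In the smg-2 triple mutant 8 were called higher and 1 lower (25.8% and 26% of all genes). The member called lower in both triple mutants was pals-2.

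Members of the run with pals-16 to pals-20 also rose. pals-18, which overlaps pals-19 on the same strand, had 4.52, 4.41, 4.75, 4.63 and 6.22 CPM in smg-1 and 5.37, 4.97, 9.28, 4.76 and 3.94 CPM in smg-2, against 2.06, 2.19, 2.57, 2.05 and 1.73 CPM in N2. All mutant libraries lay above all N2 libraries. The log2 changes were 1.21 (SE 0.19, adjusted p = 1.57e-06 in edgeR) and 1.43 (SE 0.19, adjusted p = 5.58e-08 in edgeR). They were 0.96 and 1.32 in the egl-9 background and 1.12 and 1.11 in the egl-9 hif-1 background, and every one of these 6 pairs of groups was separate. The log2 changes of pals-19 were, for smg-1 and then smg-2, 0.77 (SE 0.25, adjusted p = 0.00850 in edgeR) and 0.81 (SE 0.24, adjusted p = 0.00679 in edgeR).

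Of the regulators in that run, pals-16, the activating one, had 3.17, 3.58, 3.83, 1.96 and 3.20 CPM in smg-1 and 2.33, 2.90, 3.11, 2.75 and 1.6 CPM in smg-2, against 1.08, 1.25, 1.12, 0.963 and 1.13 CPM in N2. N2 was the low group, and no library of either mutant reached down to it. The changes were 2.82-fold in smg-1 (log2 1.5, SE 0.25, adjusted p = 3.29e-06 in edgeR) and 2.3-fold in smg-2 (log2 1.2, SE 0.25, adjusted p = 1.33e-04 in edgeR). The repressing regulator pals-17 had 5.16, 5.31, 6.51, 5.23 and 7.22 CPM in smg-1 and 6.94, 6.07, 8.45, 6.36 and 5.69 CPM in smg-2, against 4.09, 3.97, 4.02, 4.69 and 4.47 CPM in N2. The difference was 1.39-fold in smg-1 (log2 0.47, adjusted p = 0.0187 in edgeR) and 1.59-fold in smg-2 (log2 0.67, adjusted p = 0.00147 in edgeR). The smg-1 call of pals-17 was lost without N2 library C (adjusted p = 0.0517), smg-1 library C (0.0698) or smg-1 library E (0.0738). The activating regulator pals-20 had at most 8 counts in any library and was not tested.

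pals-32, which stands alone at chrV:2896610-2898527, was the member in which the smg mutants differed. It had 9.38, 11.7, 14.9, 14.2 and 7.73 CPM in smg-1 and 6.64, 3.61, 3.39, 5.96 and 5.32 CPM in smg-2, against 1.81, 1.96, 2.57, 1.35 and 1.27 CPM in N2. The 3 groups did not overlap, with smg-1 highest and N2 lowest. The changes against N2 were 6.42-fold in smg-1 (log2 2.68, SE 0.25, adjusted p = 6.32e-12 in edgeR) and 2.77-fold in smg-2 (log2 1.47, SE 0.25, adjusted p = 6.58e-06 in edgeR). Between the mutants the log2 difference of smg-2 from smg-1 was -1.21 (SE 0.23, adjusted p = 6.88e-04 in edgeR), and without smg-1 libraries C and D, a setting chosen after seeing the data, it was -0.98 (adjusted p = 0.0289 in edgeR).

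Much of the remaining rise in smg-1 lay in its libraries C and D. Library C of smg-1 was the highest of all 45 libraries for 17 of the 38 members, and C and D were the highest and the next highest for 13, which were pals-3, pals-4, pals-5, pals-6, pals-8, pals-9, pals-14, pals-26, pals-27, pals-32, pals-33, pals-37 and pals-39. pals-4 had 1.17, 1.15, 9.65, 3.70 and 0.957 CPM in smg-1 libraries A to E, against 0.889, 1.25, 0.461, 0.578 and 1.000 CPM in N2. pals-39 had 0.293, 0.192, 5.90, 2.72 and 0.221 CPM in smg-1, against 0.730, 0.890, 0.132, 0.257 and 0.600 CPM in N2. Libraries A, B and E of smg-1 lay inside or near the N2 range for pals-4 and at its low end for pals-39. pals-5, an output gene widely used as a reporter of the response, had 0, 0, 17, 13 and 2 counts in smg-1 and 0, 1, 0, 2 and 1 counts in N2, and was not tested.

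Without smg-1 libraries C and D the number of members called in smg-1 against N2 was 7 of 23, all higher, beside 23.2% of all genes higher and 21.7% lower. All 7 were among the 16 called with every library: pals-16, pals-18, pals-19, pals-23, pals-24, pals-32 and pals-38. pals-23 then changed by log2 3.36 (SE 0.20, adjusted p = 1.24e-17 in edgeR) and pals-32 by 2.39 (SE 0.27, adjusted p = 1.29e-09 in edgeR). The fitted change of pals-39 was -1.21 (adjusted p = 0.213 in edgeR) without them, against 1.72 with them, and that of pals-37 was -0.01 (adjusted p = 0.993), against 1.65. Leaving out smg-1 library C alone left 9 members called, with no share of all genes given for that setting. It ended the calls of pals-3 (log2 1.5, adjusted p = 0.0841), pals-4 (0.99, adjusted p = 0.0630), pals-14 (0.75, adjusted p = 0.308), pals-33 (1.19, adjusted p = 0.0844), pals-37 (1.09, adjusted p = 0.108) and pals-39 (0.58, adjusted p = 0.506) in edgeR. Leaving out smg-1 library D alone ended those of pals-14 (1.21, adjusted p = 0.111), pals-37 (1.27, adjusted p = 0.0690) and pals-39 (1.51, adjusted p = 0.0902). The calls of pals-14 and pals-39 also depended on single N2 libraries (adjusted p between 0.0526 and 0.101).

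**Figure D2:**
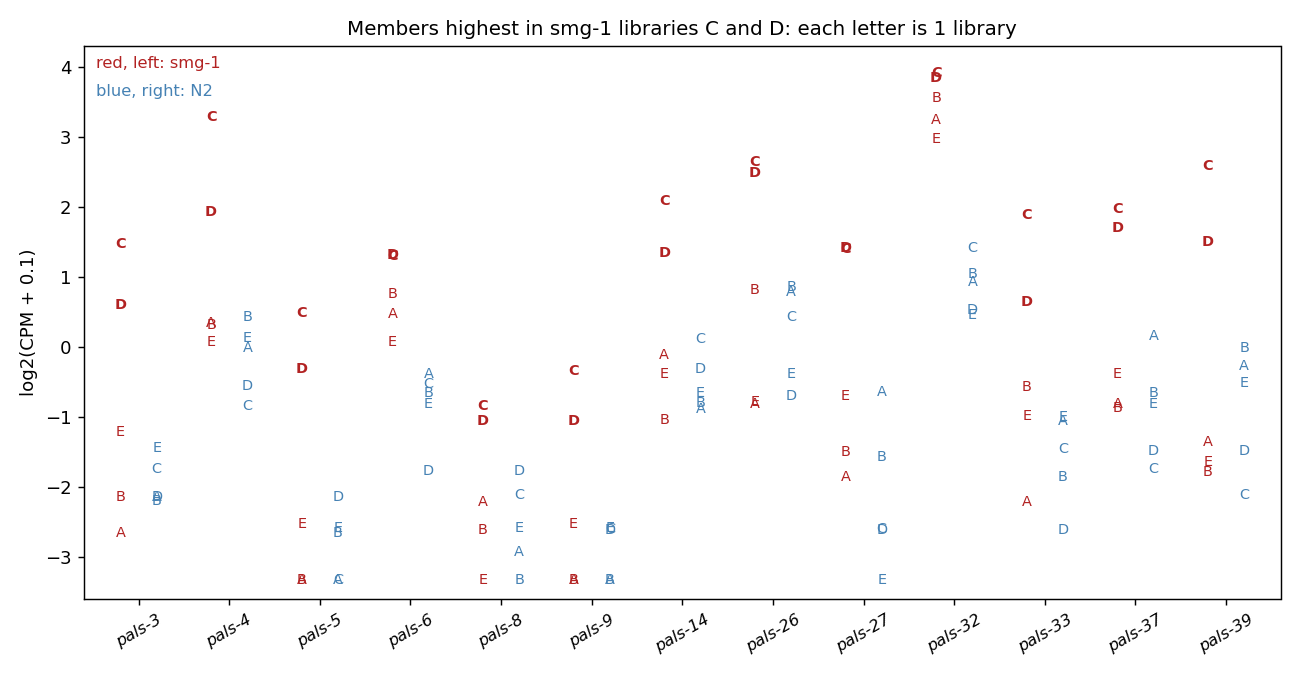
CPM (log axis) of the 13 members whose highest and next highest libraries of all 45 were smg-1 C and D, in smg-1 and in N2, with the letter of each smg-1 library as its marker. C and D lie above A, B and E for each of them, at 9.65 and 3.70 CPM for pals-4 and at 5.90 and 2.72 CPM for pals-39.

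Genes of the intracellular pathogen response outside the family were read beside it. Of 15 listed output genes 11 could be tested, and 8 were called higher and 0 lower in smg-1, with 5 higher and 0 lower in smg-2, each against N2. Of all genes tested 28.8% were higher and 24.3% lower in smg-1, and 24.3% were higher and 19.6% lower in smg-2. The 5 in smg-2 were cul-6, the cullin of the ubiquitin ligase, with the ligase genes skr-3 (log2 0.41), skr-4 (0.54) and skr-5 (1.43) and the RING gene rcs-1 (0.49). Fitted with no filter on low counts, the untested output T08E11.1 was called higher in smg-1 (log2 2.84, adjusted p = 0.00500 in edgeR) and in smg-2 (2.64, adjusted p = 0.0104 in edgeR). The other untested outputs, F26F2.3, F26F2.4 and chil-27, were called in neither. cul-6 had 18.1, 20.3, 23.7, 20.4 and 22 CPM in smg-1 and 22.3, 23.8, 21.0, 19.6 and 16.6 CPM in smg-2, against 6.47, 5.99, 6.46, 3.40 and 4.87 CPM in N2. NMD mutant libraries were all above N2 libraries, with log2 changes of 1.93 (SE 0.15, adjusted p = 3.16e-14 in edgeR) and 1.92 (SE 0.15, adjusted p = 3.43e-14 in edgeR). They were 1.24 and 1.72 in the egl-9 background, and in the egl-9 hif-1 background 1.47 and 1.63, each with separate libraries.

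Other outputs followed the smg-1 libraries C and D. eol-1 had 0.235, 1.02, 11.6, 4.3 and 0.368 CPM in smg-1, against 0.254, 0.712, 0.461, 0.321 and 0.133 CPM in N2. Its log2 change was 3.18 (adjusted p = 5.68e-04 in edgeR) with all libraries and 0.47 (adjusted p = 0.646) without C and D, while that of cul-6 was 1.86 (adjusted p = 1.74e-12) without them. Without C and D, 3 of the 11 output genes were called in smg-1, namely cul-6, rcs-1 and skr-5, all higher, in the setting in which 23.2% of all genes were higher. Of 5 listed regulators of the response outside the family, 1 was called higher and 1 lower in smg-1, and 0 higher and 1 lower in smg-2. Of 4 tested genes of antiviral RNA interference and decay, 0 were higher and 2 lower in each smg mutant, and 1, rde-4, was lower in smg-1 without C and D. Over all genes 24.3% were lower in smg-1, 21.7% in smg-1 without C and D and 19.6% in smg-2. The shares called higher were 28.8% in smg-1 and 24.3% in smg-2.

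Loss of egl-9 alone called 2 members against N2: pals-16 was higher and pals-1 was lower, beside 11.9% of all genes higher and 21.8% lower. pals-1, whose function is not established, lies at chrI:11579856-11581989. It had 0.299, 0.149, 0.492, 0.510 and 0.488 CPM in egl-9, against 1.56, 1.72, 1.38, 1.35 and 1.6 CPM in N2. The groups were far apart, and pals-1 was 3.83-fold lower in egl-9 (log2 -1.94, SE 0.27, adjusted p = 3.15e-07 in edgeR). pals-16 had 1.73, 3.58, 2.50, 1.31 and 2.28 CPM in egl-9, against the N2 values above, a difference of log2 1.04 (SE 0.25, adjusted p = 0.00113 in edgeR), also without overlap. pals-23 and pals-24 averaged 5.80 and 5.39 CPM in egl-9 and 6.37 and 6.90 CPM in N2 and were not called. Counts of members called against N2 reached 4 with DESeq2's size factors and 5 with its Wald test. Over all genes, 2475 were then called higher and 3034 lower with size factors, and 2574 and 3084 with the Wald test. The main fit called 1916 genes higher and 3500 lower.

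Loss of hif-1 on top of egl-9 raised pals-1. It had 1.34, 1.08, 1.18, 1.55 and 1.09 CPM in egl-9 hif-1, against the egl-9 values above, a 3.13-fold difference (log2 1.65, SE 0.28, adjusted p = 5.16e-06 in edgeR) with separate libraries. In this comparison 4 members were called higher and 1 lower, and 26.7% of all genes were called higher and 20.0% lower. The other 3 higher calls were pals-23 (2.42-fold, log2 1.27, SE 0.18, adjusted p = 9.86e-08), pals-24 (2.86-fold, log2 1.51, SE 0.22, adjusted p = 1.82e-07) and pals-32 (2.41-fold, log2 1.27, SE 0.26, adjusted p = 1.08e-04), all in edgeR. For pals-23 and pals-24 the lowest egl-9 hif-1 library, D at 8.71 and 8.13 CPM, was above the highest egl-9 library, at 7.34 and 6.87 CPM. pals-32 had 2.44, 2.74, 5.02, 6.13 and 2.39 CPM in egl-9 hif-1, against 2.39, 1.42, 1.11, 1.53 and 1.22 CPM in egl-9, and the groups touched at 2.39 CPM.

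The 1 member called lower was the brake pals-22, with 2.20, 2.68, 1.96, 2.26 and 2.43 CPM in egl-9 hif-1, against 2.87, 3.06, 3.28, 2.84 and 2.76 CPM in egl-9. The groups were separate, but the difference was small (log2 -0.36, SE 0.14, adjusted p = 0.0361 in edgeR). Its call was lost without egl-9 library B (adjusted p = 0.0574) or C (0.0945), or egl-9 hif-1 library A (0.0617) or C (0.0643). Its activating partner pals-25 averaged close to 2 CPM in both genotypes.

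Against N2, egl-9 hif-1 had 5 members called higher and 0 lower (9.65% and 4.85% of all genes). They were pals-16 (log2 0.94, adjusted p = 0.00991), pals-17 (0.50, adjusted p = 0.0412), pals-23 (1.13, adjusted p = 1.44e-05), pals-24 (1.15, adjusted p = 2.17e-04) and pals-32 (1.04, adjusted p = 0.00483) in edgeR. pals-16 alone had separate groups. For pals-23 and pals-24 library D of egl-9 hif-1 fell within the N2 range, and its other 4 libraries lay above it. Without egl-9 hif-1 library C the change of pals-17 was 0.32 (adjusted p = 0.273 in edgeR), and its call was also lost without library E of that genotype (adjusted p = 0.167) or without N2 library A, B, C or E (adjusted p between 0.0524 and 0.0943).

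**Figure D3:**
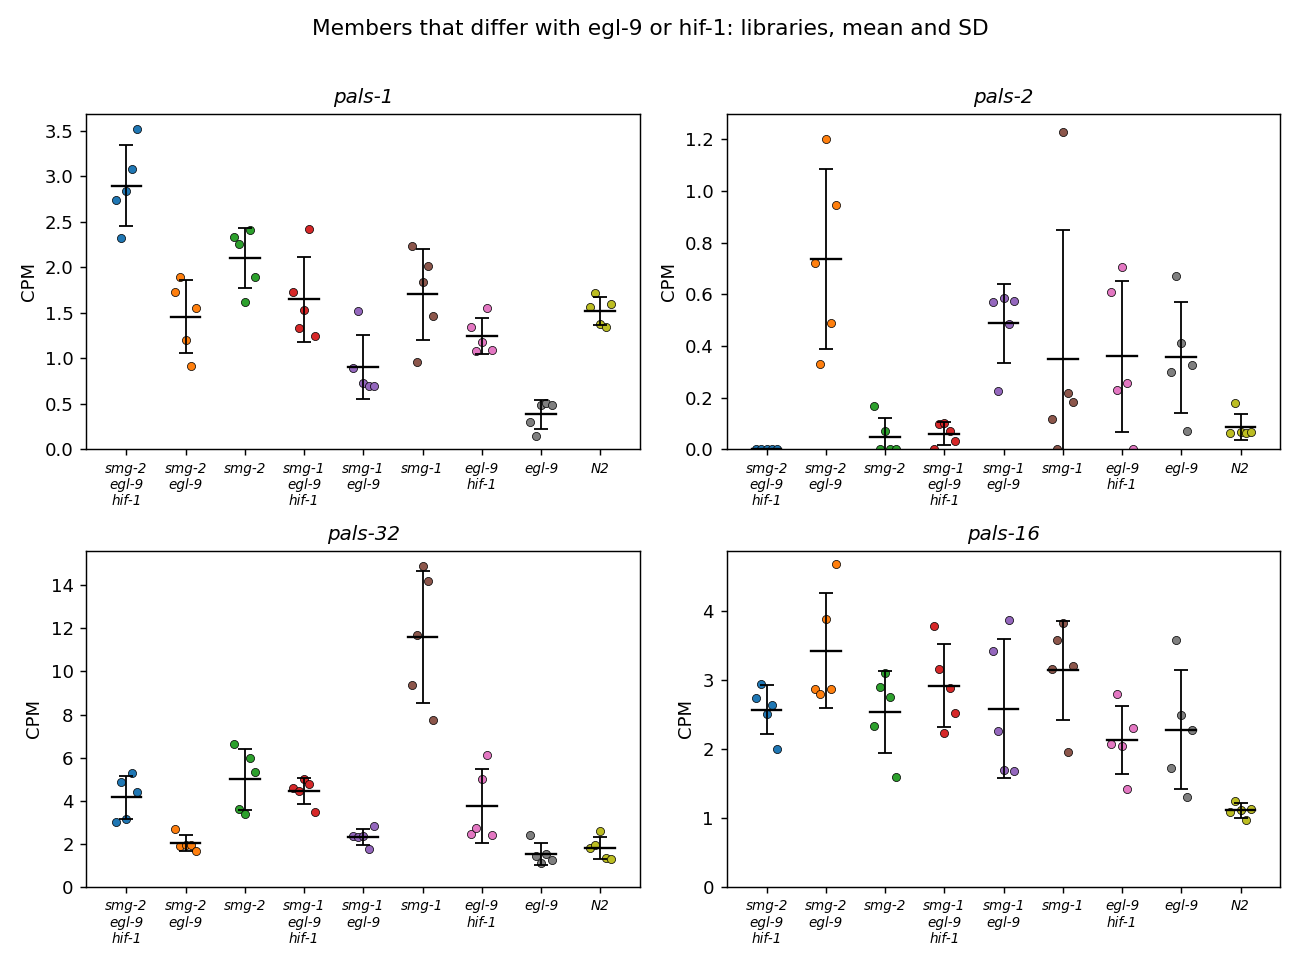
CPM of pals-1, pals-2, pals-16 and pals-32 in the 9 genotypes, with 5 libraries as points and the mean and SD as bars; where the SD reaches below 0, its bar ends at 0. pals-1 is lowest in egl-9, at a mean of 0.388 CPM against 1.52 CPM in N2, and pals-2 is at 0 in all 5 libraries of the smg-2 triple mutant.

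With NMD lost, removal of egl-9 gave different counts in the 2 smg backgrounds. Against smg-1, smg-1 egl-9 had 0 members called higher and 13 lower (25.1% and 25.3% of all genes). Against smg-2, smg-2 egl-9 had 1 called higher and 1 lower (19% and 21.9% of all genes). Both backgrounds had a lower pals-32: it had 2.35, 2.32, 2.35, 1.77 and 2.83 CPM in smg-1 egl-9 and 2.66, 1.90, 1.92, 1.96 and 1.68 CPM in smg-2 egl-9, all below every library of the matching single smg mutant. The log2 changes were -2.31 (SE 0.24, adjusted p = 4.35e-10 in edgeR) and -1.31 (SE 0.25, adjusted p = 5.04e-05 in edgeR). In smg-1 egl-9, pals-23 and pals-24 were also lower than in smg-1, by log2 -0.60 (SE 0.16, adjusted p = 0.00169 in edgeR) and -0.79 (SE 0.20, adjusted p = 0.00108 in edgeR), with separate libraries. pals-6 had 0.0635, 0.339, 0.403, 0.699 and 0.0820 CPM in smg-1 egl-9, against 1.29, 1.6, 2.37, 2.4 and 0.957 CPM in smg-1, a log2 change of -2.4 (SE 0.53, adjusted p = 2.73e-04 in edgeR).

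Of the 13 members lower in smg-1 egl-9, several were those high in smg-1 C and D. Without these libraries 5 of 23 members were called lower (pals-1, pals-6, pals-23, pals-24 and pals-32) and 1 higher, pals-2 (log2 2.05, adjusted p = 0.0268 in edgeR), beside 22.4% of all genes lower and 21.2% higher. Library C of smg-1 alone ended the calls of pals-3 (log2 -1.52, adjusted p = 0.0728), pals-14 (-1.23, adjusted p = 0.0949), pals-26 (-1.0, adjusted p = 0.188), pals-33 (-0.48, adjusted p = 0.488), pals-38 (-0.64, adjusted p = 0.129) and pals-39 (-1.24, adjusted p = 0.154). For pals-26, pals-33 and pals-38 other single libraries of either genotype also ended it (adjusted p between 0.0524 and 0.164).

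Whether NMD loss altered the effect of egl-9 was tested as an interaction, the effect of egl-9 loss in a smg mutant minus that in the wild type. With smg-1, 7 members were called below 0 and 0 above (3.15% and 5.78% of all genes). The calls were pals-3 (-4.21), pals-6 (-3.40), pals-16 (-1.33, SE 0.34, adjusted p = 0.0142), pals-32 (-2.08, SE 0.36, adjusted p = 3.78e-04), pals-33 (-2.85), pals-37 (-2.60) and pals-39 (-3.44) on the log2 scale. Without smg-1 libraries C and D 3 were called below 0, beside 1.79% of all genes: pals-6 (-2.98, adjusted p = 0.0262), pals-16 (-1.42, adjusted p = 0.0152) and pals-32 (-1.82, adjusted p = 0.00480) in edgeR. Without smg-1 library C alone, pals-33 (-1.95, adjusted p = 0.122), pals-37 (-2.08, adjusted p = 0.118) and pals-39 (-2.34, adjusted p = 0.142) were not called. Leaving out single libraries of the other genotypes also ended these 3 calls (adjusted p between 0.0503 and 0.0853).

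With smg-2, 1 member was called above 0 and 0 below (1.69% and 1.96% of all genes): pals-1, at 1.42 (SE 0.36, adjusted p = 0.0159 in edgeR). pals-1 had 1.73, 1.90, 1.2, 0.920 and 1.55 CPM in smg-2 egl-9 and 2.33, 2.26, 1.62, 2.41 and 1.90 CPM in smg-2. It thus stood at 1.46 and 2.1 CPM in the mean there, a smaller gap than the 0.388 CPM in egl-9 and 1.52 CPM in N2. For smg-1 the same interaction of pals-1 was 1.02 (SE 0.37, adjusted p = 0.0668 in edgeR). On the deposited log2 TPM values the smg-2 interaction was 0.57 and not called. Set against egl-9, pals-1 was 3.68-fold higher in smg-2 egl-9 (log2 1.88, SE 0.27, adjusted p = 3.36e-07 in edgeR) and 2.26-fold higher in smg-1 egl-9 (log2 1.18, SE 0.28, adjusted p = 0.00116 in edgeR), both with separate libraries.

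Removal of hif-1 in the smg egl-9 strains moved a few members. In the smg-1 triple mutant against smg-1 egl-9, 5 members were called higher and 1 lower (24% and 25.7% of all genes). In the smg-2 triple mutant against smg-2 egl-9, 4 were called higher and 1 lower (28.4% and 29.2% of all genes). Without triple mutant library D or E 9 were called in all, with no share of all genes given there. pals-1 was higher by log2 0.87 (SE 0.23, adjusted p = 0.00194 in edgeR) and 0.97 (SE 0.23, adjusted p = 3.68e-04 in edgeR), and pals-32 by 0.93 (SE 0.24, adjusted p = 0.00145 in edgeR) and 1.05 (SE 0.25, adjusted p = 4.99e-04 in edgeR). pals-31 had 0.274, 0.662, 0.644, 0.881 and 0.381 CPM in the smg-2 triple mutant, against 0, 0.142, 0.120, 0.184 and 0.0860 CPM in smg-2 egl-9. These groups were separate at a low level, with a log2 change of 2.36 (SE 0.58, adjusted p = 6.48e-04 in edgeR). pals-6 was higher in the smg-1 triple mutant than in smg-1 egl-9 (log2 1.36, adjusted p = 0.0359 in edgeR), with overlap, and its call was lost without any 1 of 5 libraries, A, B and E of smg-1 egl-9 and A and D of the triple mutant (adjusted p between 0.0533 and 0.140).

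pals-23 rose by log2 0.40 in the smg-1 triple mutant (SE 0.16, adjusted p = 0.0330 in edgeR) and by 0.38 in the smg-2 triple mutant (SE 0.16, adjusted p = 0.0355 in edgeR), each against its smg egl-9 strain. pals-24 rose by 0.58 in the smg-1 triple mutant (SE 0.20, adjusted p = 0.0130 in edgeR). These steps were smaller than the 1.27 and 1.51 seen when hif-1 was removed with NMD intact. The call of pals-23 in the smg-1 triple mutant was lost without smg-1 egl-9 library A or E or triple mutant library B or E (adjusted p between 0.0638 and 0.0890). In the smg-2 triple mutant it was lost without smg-2 egl-9 library A, B or D or triple mutant library A or C (adjusted p between 0.0616 and 0.0802). On the deposited log2 TPM values neither step of pals-23 was called: 0.41 (adjusted p = 0.0537 in limma) with smg-1 and 0.28 (adjusted p = 0.169 in limma) with smg-2. With no filter on low counts the smg-1 step was 0.39 (adjusted p = 0.0554 in edgeR).

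The interaction with hif-1, the effect of hif-1 loss in a smg egl-9 strain minus that in egl-9, tested this difference. With smg-2, 1 member was called above 0 and 3 below (4.75% and 15.4% of all genes). pals-24 stood at -1.19 (SE 0.29, adjusted p = 0.00257), pals-23 at -0.89 (SE 0.24, adjusted p = 0.00527) and pals-22 at 0.65 (SE 0.20, adjusted p = 0.0167) in edgeR, and the last call below 0 was pals-2. The median over all genes was -0.13, and -0.01 with DESeq2's size factors. With smg-1, 1 member was called below 0 and 0 above (2.82% and 0.766% of all genes): pals-23, at -0.88 (SE 0.24, adjusted p = 0.0271 in edgeR), beside -0.93 for pals-24 (SE 0.29, adjusted p = 0.0606 in edgeR). The median over all genes there was -0.11, and 0.02 with DESeq2's size factors, under which pals-23 stood at -0.76 and was not called.

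Both pals-23 interactions depended on the setting and on single libraries. On the deposited log2 TPM values neither was called: -0.48 (adjusted p = 0.304 in limma) with smg-1 and -0.61 (adjusted p = 0.0920 in limma) with smg-2. The smg-1 one was lost without egl-9 library A or D, egl-9 hif-1 library B, C or E, smg-1 egl-9 library C or smg-1 triple mutant library D (adjusted p between 0.0511 and 0.145). It was also lost without smg-1 triple mutant library C, the one with raised HIF-1 targets (log2 -0.83, adjusted p = 0.0526 in edgeR). The smg-2 one was lost without egl-9 hif-1 library C (log2 -0.67, adjusted p = 0.0650 in edgeR) or smg-2 triple mutant library D (-0.69, adjusted p = 0.0561 in edgeR).

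pals-2, a low member of the run of 14, moved the other way and reached 0 in 1 genotype. It had 0 counts in all 5 libraries of the smg-2 triple mutant, against 10, 7, 20, 8 and 22 counts in smg-2 egl-9 and 10, 4, 9, 4 and 0 counts in egl-9 hif-1. Taking 3 counts over the 5 libraries as the most that 0 allows, it was at least 20.5-fold lower in the smg-2 triple mutant than in smg-2 egl-9 and at least 8.68-fold lower than in egl-9 hif-1, a limit that covers counting error only. The smg-1 triple mutant had 0, 2, 3, 2 and 1 counts, against 9, 4, 16, 9 and 14 in smg-1 egl-9. The libraries were separate in CPM (log2 -2.83, SE 0.74, adjusted p = 0.00178 in edgeR). smg-2 had 4, 0, 2, 0 and 0 counts, and pals-2 was higher in smg-2 egl-9 than in smg-2 (log2 3.46, SE 0.77, adjusted p = 4.35e-04 in edgeR). N2 had 2, 3, 1, 1 and 1 counts. In the smg-1 triple mutant against egl-9 hif-1 the log2 change was -2.27 (adjusted p = 0.0242 in edgeR), a call lost without egl-9 hif-1 library A (0.0832) or C (0.0949) or triple mutant library E (0.0640).

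The remaining calls in the smg-2 triple mutant against egl-9 hif-1 were of pals-1 (log2 1.2, SE 0.23, adjusted p = 2.45e-05), with separate libraries, and, with overlap, pals-22 (0.49, adjusted p = 0.00378), pals-38 (1.09, adjusted p = 0.0129), pals-19 (0.71, adjusted p = 0.0159) and pals-27 (2.06, adjusted p = 0.0186) in edgeR. pals-22 had 3.56, 3.52, 3.22, 3.45 and 2.38 CPM in that triple mutant, so that 4 of its 5 libraries lay above the highest egl-9 hif-1 library at 2.68 CPM. Single libraries ended 3 of these calls: triple mutant library A that of pals-38 (adjusted p = 0.0660), triple mutant library A (0.0992) or egl-9 hif-1 library A (0.0505) that of pals-19, and triple mutant library C (0.0565) or egl-9 hif-1 library E (0.0542) that of pals-27. The same held in the egl-9 background for the lower call of pals-6 in smg-1 egl-9 (log2 -1.65, adjusted p = 0.0186), which ended without egl-9 library B (0.0831) or smg-1 egl-9 library E (0.0608). The calls of pals-19 in smg-1 egl-9 (0.63, adjusted p = 0.0392) and of pals-16 in smg-2 egl-9 (0.59, adjusted p = 0.0459) each ended with 6 or more single libraries left out (adjusted p between 0.0542 and 0.167).

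The makeup of the animals' RNA moved with the genotypes. Of 5 germline markers, 4 were lower in smg-1 and 4 in smg-2 than in N2, and their summed level ran from 1928 to 2498 CPM in smg-1 and from 1795 to 2514 CPM in smg-2, against 2968 to 3520 CPM in N2. Of all genes 24.3% were lower in smg-1 and 19.6% in smg-2. With egl-9 also mutated, smg-1 egl-9 had 3 of the 5 lower and smg-2 egl-9 had 2, against egl-9, and the triple mutants had 5 and 4 lower against egl-9 hif-1. Of 5 intestine markers, smg-1 had 3 higher and smg-2 had 1, with summed levels of 1321 to 1893 CPM and 1291 to 2105 CPM, against 1196 to 1454 CPM in N2. The shares of all genes called higher were 28.8% in smg-1 and 24.3% in smg-2. Without smg-1 libraries C and D 2 intestine markers were higher in smg-1, beside 23.2% of all genes. Of 5 sperm markers, 5 were lower in egl-9 than in N2, with 59.3 to 141 CPM in egl-9 against 157 to 260 CPM in N2, and egl-9 hif-1 had 5 higher than egl-9. In these comparisons 21.8% of all genes were lower and 26.7% higher, respectively. When egl-9 was lost in smg-1, where 13 members were called lower, 4 of 4 pharyngeal muscle markers, 3 of 5 intestine, 3 of 5 body wall muscle, 2 of 5 epidermis, 3 of 6 neuron and 5 of 5 sperm markers were lower, while 3 of 5 germline and 2 of 6 neuron markers were higher. Of all genes 25.3% were lower and 25.1% higher in that comparison. Summed pharyngeal muscle markers ran from 444 to 755 CPM in smg-1 egl-9 and from 760 to 1041 CPM in smg-1. Summed intestine markers ran from 1224 to 1646 CPM in smg-1 egl-9 and from 1321 to 1893 CPM in smg-1, and summed sperm markers from 106 to 169 CPM in smg-1 egl-9 and from 219 to 272 CPM in smg-1. Those counts of lower markers were the same without smg-1 libraries C and D, beside 22.4% of all genes lower. The part of these shifts in the members' changes was not tested.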

How the data were processed

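Polyadenylated RNA of 45 libraries, 5 per genotype, had been prepared with a directional kit and 12 cycles of amplification and read in pairs of 75 nt, per the labels' protocols. The authors deposited a table of whole-number counts per gene and a table of log2(TPM + 1) values, both with 1 column per library. The submitters' processing notes name FastQC, STAR 2.7.9a, RSEM 1.3.0, DESeq2 and the build WBcel235, with no role for each. The annotation and the use of strand in counting are not given in the sources used here. Members were chosen by name and type alone, and positions and overlaps were read from an Ensembl annotation of WBcel235.

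From the deposited counts, 1 edgeR 4.0.16 model (R 4.3.3) of 9 genotype means was fitted with TMM scaling to the 16053 genes that passed filterByExpr, with 36 residual degrees of freedom. The genes left out hold 0.0372% of all counts. Quasi-likelihood F tests gave 14 comparisons and 4 interactions, with Benjamini-Hochberg adjustment over all genes tested and a call at an adjusted p under 0.05. DESeq2 1.42.0 was used for alternatives only, and limma 3.58.1 for the deposited log2 TPM values. CPM values are TMM-scaled, and TPM values were taken back from the deposited log2 values. Count alternatives were another scaling, another filter, another test, other sets of libraries and a block for the replicate letter. The test was also run on simulated counts, but the outcome is not given here, so no conclusion about the calls is drawn from it.

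The precision of a low member is set by its counts, and intervals and floors cover counting error only. Of 90 pairs of replicates the chi-square per degree of freedom ran from 4.89 to 88.5, so no library was counted as a copy of another. The labels call the replicates biological and do not say more, so p-values measure the spread between these samples. In each comparison the text names the members with published roles, members over 5 CPM in N2 and up to 5 members with the smallest adjusted p among those changed at least 2-fold, and gives others that its counts turn on, which were chosen after their values were seen. The rule that took the members used name and type alone, but it and the gene lists were set with earlier results of these data known.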

Additional observations from a re-analysis of the deposited data

Results flagged for a closer look

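A test of the difference itself in edgeR called several members for an effect of egl-9 or hif-1 loss that differed in a smg mutant. Not all of these calls held in other settings. For the effect of egl-9 loss with smg-1 against that without it, the log2 differences were -4.21 for pals-3 (adjusted p = 0.0106), -3.40 for pals-6 (adjusted p = 0.00548), -1.33 for pals-16, -2.08 for pals-32, -2.85 for pals-33 (adjusted p = 0.0304), -2.60 for pals-37 (adjusted p = 0.0422) and -3.44 for pals-39 (adjusted p = 0.0324). Without smg-1 libraries C and D, pals-3 stood at -2.05 (adjusted p = 0.236), pals-33 at -1.19 (adjusted p = 0.386), pals-37 at -0.98 (adjusted p = 0.489) and pals-39 at -0.55 (adjusted p = 0.806). With smg-2 the difference was 1.42 for pals-1, and it was not called on log2 TPM values (0.57, adjusted p = 0.0979 in limma). For the effect of hif-1 loss the difference was -0.88 for pals-23 with smg-1. That call ended with any 1 of 8 libraries left out, with DESeq2's size factors, with no filter, on log2 TPM values and with only the genotypes compared. With smg-2 the difference was 0.65 for pals-22, -0.89 for pals-23 and -1.19 for pals-24, and for pals-2 a fitted value of -6.71 that depends on the prior count, since the smg-2 triple mutant had 0 counts. That of pals-23 was not called on log2 TPM values (-0.61, adjusted p = 0.0920 in limma) or without either of 2 single libraries. No cause of these differences was tested.

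A single library lay far from the other 4 of its genotype in 17 of 198 groups examined, by Dixon's test, and chance flags about 1 in 20 groups. Library C was the high one for pals-23 (90.3 CPM) and pals-18 (9.28 CPM) in smg-2, for pals-18 in smg-1 egl-9 (6.41 CPM), for pals-2 in smg-1 (1.23 CPM), and for pals-26 (2.87 CPM), pals-27 (1.08 CPM) and pals-39 (2.27 CPM) in smg-2 egl-9. It was also the high one for pals-26 in egl-9 hif-1 (4.47 CPM). Other high libraries were smg-1 E for pals-18 (6.22 CPM), egl-9 B for pals-26 (1.49 CPM), smg-1 egl-9 B for pals-1 (1.52 CPM) and N2 B for pals-2 (0.178 CPM). Low ones were smg-1 triple mutant D for pals-24 (23.6 CPM), smg-2 triple mutant E for pals-22 (2.38 CPM), N2 C for pals-22 (2.17 CPM), smg-1 egl-9 B for pals-2 (0.226 CPM) and smg-2 E for pals-39 (0.146 CPM).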

How the results depend on the processing

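The ranges in this paragraph have no share of all genes beside them. Leaving out 1 library at a time gave 2 to 3 members called for egl-9 against N2, 4 to 5 for egl-9 hif-1 against egl-9 and 4 to 5 for it against N2. It gave 9 to 18 for smg-1 and 8 to 9 for smg-2 against N2, and 1 to 1 for smg-2 against smg-1. NMD loss in the egl-9 background gave 5 to 8 (smg-1) and 6 to 7 (smg-2), and in the egl-9 hif-1 background 3 to 5 and 7 to 10. Loss of egl-9 gave 8 to 14 in smg-1, the lowest without smg-1 library C, and 2 to 3 in smg-2. Loss of hif-1 gave 4 to 7 in smg-1 egl-9 and 4 to 9 in smg-2 egl-9. The interactions with egl-9 gave 4 to 9 (smg-1), the lowest without smg-1 library C, egl-9 B, N2 D or smg-1 egl-9 E, and 1 to 1 (smg-2), and those with hif-1 gave 0 to 2 and 3 to 4.

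A minimum mean of 5 CPM left 3 members, and shares of all genes are not given for it. The counts were then 0 for egl-9 against N2, 2 and 3 for egl-9 hif-1 against egl-9 and N2, 3 each for smg-1 and smg-2 against N2, and 0 for smg-2 against smg-1. In the egl-9 background they were 2 (smg-1) and 3 (smg-2), in the egl-9 hif-1 background 2 and 2, for egl-9 loss 2 and 0, for hif-1 loss 2 and 1, for the interactions with egl-9 0 and 0 and for that of smg-2 with hif-1 2; here fewer members could be called. Fits of only the genotypes compared gave 9 for smg-1 and 3 for egl-9 hif-1 against N2, 6 and 1 for egl-9 loss in smg-1 and smg-2, and 3 and 0 for the interactions of smg-1 with egl-9 and with hif-1. These fits also tested fewer members: 15 and 15 against N2, 16 and 19 for egl-9 loss, and 19 and 21 for the interactions. On log2 TPM values the counts were 3 for egl-9 hif-1 against N2, 4 and 0 for the interactions of smg-1 and smg-2 with egl-9, and 0 for that of smg-1 with hif-1. The last was also 0 with DESeq2's size factors and with no filter. For egl-9 against N2 size factors gave 4 and the DESeq2 Wald test 5, which gave 2 for the interaction of smg-2 with egl-9. Without smg-1 libraries C and D, a setting added after seeing the data, counts were 7 (smg-1 against N2), 6 (smg-1 egl-9 against smg-1) and 3 (interaction of smg-1 with egl-9). Log2 changes that turned there were pals-37 (-0.01) and pals-39 (-1.21) in smg-1 against N2, and pals-33 (0.29), pals-26 (0.22) and pals-39 (0.55) for egl-9 loss in the smg-1 background. The cause was not tested for any other change.

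Of 173 values of single members, the same side of the threshold and direction held for 168 with size factors, 171 with the Wald test, 163 with no filter and 153 on log2 TPM. Replicate letters were not taken as pairs, because in 0 of 14 comparisons of a pair of genotypes did all 5 letters have deviations correlated over 0.1, though 3 or more letters did in 9. With the letter as a replicate block the counts were 4 for egl-9 against N2 and 2 for the smg-1 by hif-1 interaction, every other count lay within 1.5 times, and 168 of the member values held. The others were pals-24 in that interaction (-0.94, adjusted p = 0.00995) and pals-17 in egl-9 hif-1 and in smg-1 egl-9, each against egl-9 (adjusted p = 0.0452 and 0.0456), which were called with the block, and pals-14 and pals-39 in smg-1 against N2 (adjusted p = 0.0541 and 0.0867), which were not, all in edgeR. Size factors moved the share of higher among all genes called from 57.2% to 44.6% for egl-9 hif-1 against egl-9 and from 66.6% to 53.7% for it against N2. For NMD loss with egl-9 mutated the shares were 69.5% and 54.6% (smg-1) and 71.0% and 49.9% (smg-2), for the interactions with egl-9 64.7% and 40.1%, and 46.3% and 34.1%, and for those with hif-1 21.4% and 54.2%, and 23.6% and 43.1%. Members under about 1 CPM rest on few counts, which limits the precision of their changes.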

Other observations

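The 15 members left out of the test had between 0 and 17 counts in any library. Fitted with no filter on low counts, pals-13, at the left end of the run of 14 and overlapping C17H1.2 on the same strand, was called higher in all 6 comparisons that remove NMD. It had 1, 0, 1, 3 and 6 counts in smg-1 and 7, 3, 12, 2 and 2 counts in smg-2, against 0, 0, 1, 0 and 0 in N2. In the egl-9 background it had 3, 5, 10, 6 and 5 counts in smg-1 egl-9 and 3, 5, 6, 2 and 4 in smg-2 egl-9, against 1, 0, 0, 1 and 0 in egl-9. The triple mutants had 0, 2, 9, 13 and 4 counts with smg-1 and 3, 5, 4, 2 and 3 with smg-2, against 1, 0, 0, 0 and 1 in egl-9 hif-1. Adjusted p-values in edgeR lay between 2.75e-04 and 0.0159, and C17H1.2 never passed 0.163 CPM.

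Other members without enough counts for the test were called with no filter in smg-1 against N2, namely pals-5 (log2 2.92, adjusted p = 0.0359 in edgeR), pals-9 (2.41, adjusted p = 0.0462) and pals-29. pals-9 had 0, 0, 9, 7 and 2 counts in smg-1 and 0, 0, 1, 1 and 1 in N2, and pals-29 had 0, 0, 15, 5 and 3 counts in smg-1 and 0, 0, 3, 0 and 0 in N2. As for pals-5, libraries C and D of smg-1 held most of these counts.

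The ubiquitin ligase gene skr-5 moved with egl-9 as well as with NMD. It had 1.37, 2.99, 2.38, 2.7 and 1.79 CPM in egl-9, against 0.571, 0.474, 0.329, 0.514 and 0.333 CPM in N2, which is a log2 difference of 2.28 with an SE of 0.29 and an adjusted p of 3.63e-08 in edgeR. Loss of hif-1 as well lowered skr-5 against egl-9, with a log2 difference of -0.89 (adjusted p = 0.00458 in edgeR). In smg-2 egl-9 it had 4.03, 5.60, 6.11, 4.05 and 3.65 CPM, above every library of egl-9. Of the 10 other output genes tested, none was called in egl-9 against N2 by edgeR, beside 11.9% of all genes higher and 21.8% lower.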
